A study of Mus musculus with 2 samples.

Results

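Among the authors' 2017 NcoA3 peaks, 760 (37.7%) were weaker, isolated sites that lay in stretches of the genome rich in control reads. They were chosen from the deposited mm8 peak list by a fixed rule. The peak had to lie on an autosome, hold fewer than 30 ChIP tags, have no other summit within 10 kb, and lie outside positions 53000001 to 111000000 of chromosome 8, a dense stretch in these cells. Its summit also had to lie in a 100 kb bin whose control reads were at or above the median of usable autosomal bins. That median was 541.5 reads over 23578 bins with at least 100 reads. The list narrowed from 1995 autosomal peaks to 1658 under the tag limit, 1500 isolated ones, 1311 outside the chromosome 8 stretch and then 760. The other 551 of these 1311 had surroundings below the median and are called control-poor here. A further 226 isolated autosomal peaks outside the chromosome 8 stretch held 30 or more tags and are called strong. Because tags and control reads chose the members, their ChIP and control levels are descriptions and support nothing by themselves.

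The peaks come from a ChIP-seq study of E14 cells, an established line of mouse embryonic stem cells grown on gelatin with leukaemia inhibitory factor. One library (11509916 reads) was made from 600 µg of chromatin with 8 to 10 µg of an antibody against NcoA3. The other (15125180 reads) is its control, which the title and description call input while its antibody field reads IgG. Each group held 1 library and no treatment or genotype was compared, so no value has a replicate check, and intervals cover counting error only.

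NcoA3 is a coactivator of the p160 family. It does not read DNA itself but is brought to chromatin by nuclear receptors and other transcription factors, and it recruits histone acetyltransferases that favour transcription. In embryonic stem cells the study's title ties it to Esrrb, an orphan nuclear receptor of the pluripotency network. A control library made from sheared chromatin is not flat. Its reads vary along the genome with copy number, base composition, the openness of chromatin and how uniquely reads can be placed, and a peak caller weighs ChIP reads against that local level.

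Members were short peaks with few reads. In the authors' deposited table their tag count ran from 13 to 29 (median 15). At the lowest count of 13 tags stood 220 members (28.9%), against 256 of the 551 control-poor peaks (46.5%). Counts of 20 to 29 tags were held by 187 members (24.6%) and by 48 control-poor peaks (8.71%). The upper part of the tag range was thus fuller in control-rich surroundings. Tags and control reads both entered the rule, and the caller weighs ChIP reads against the local control, so this is a description only. Median length was 603.5 bp in members (363.0 to 1209 bp) and 587.0 bp in control-poor peaks. The authors' score, which is 10 times the negative log10 of the caller's p-value, had a median of 63.5 in members and reached 196. It was 100 or more at 77 members. The authors' fold over local background ran from 2.65 to 11.13. Its median was 4.77 in members and also 4.77 in control-poor peaks. The authors' empirical false discovery rate was 100% at all 760 members, at all 551 control-poor peaks and at 224 of the 226 strong peaks.

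Of these members, 18 sat at 29 tags, just inside the limit, and 12 isolated control-rich peaks sat just outside it at 30. The peak at chr1:62701406-62702324 was one of those at 29 tags and contained 24 ChIP and 16 control reads. Outside, at 30 tags, chr1:11263022-11263827 contained 29 ChIP and 9 control reads. On the distance limit, the member with the closest neighbour was at chr4:146288990-146289681. Its nearest other summit lay 10886 bp away, while chr11:33427340-33427812 was left out at 9957 bp. On the control limit, chr12:54395806-54396367 was kept with 542 control reads in its bin, and chr16:42528204-42528666 was left out with 541. Within 10 control reads of the median lay 20 members above and 23 control-poor peaks below.

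Together the members held 12444 ChIP and 3947 control reads. Reads were counted in each peak as the authors drew it, and libraries were scaled by their totals, so that 0.761 ChIP reads per control read meant no enrichment. On this scale the members stood at 4.14-fold in favour of the ChIP library (3.997 to 4.29, exact interval). Control-poor peaks were 5.06-fold higher (interval 4.82 to 5.31) and strong peaks 3.54-fold higher (interval 3.41 to 3.67). A single member held between 9 and 32 ChIP reads with a median of 15, and between 0 and 18 control reads with a median of 5. The fold per member, with 1 read added to each library, had a median of 3.72 and ran from 1.75 to 23.7. It was 2 or more at 749 members, 4 or more at 310 and 8 or more at 57.

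By an exact two-sided binomial test with Benjamini-Hochberg adjustment over the 2017 peaks, 724 of the 760 members (95.3%) were higher in the ChIP library. Over the whole list 95.3% were, and since both counts rest on the reads that chose the peaks, nothing is read from the share. None was lower, either after adjustment or at an unadjusted p under 0.05. The 36 members that did not pass held 10 to 25 ChIP reads and 4 to 18 control reads, and their adjusted p in that exact test reached 0.248. The test compares these libraries and not conditions.

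**Figure D1:**
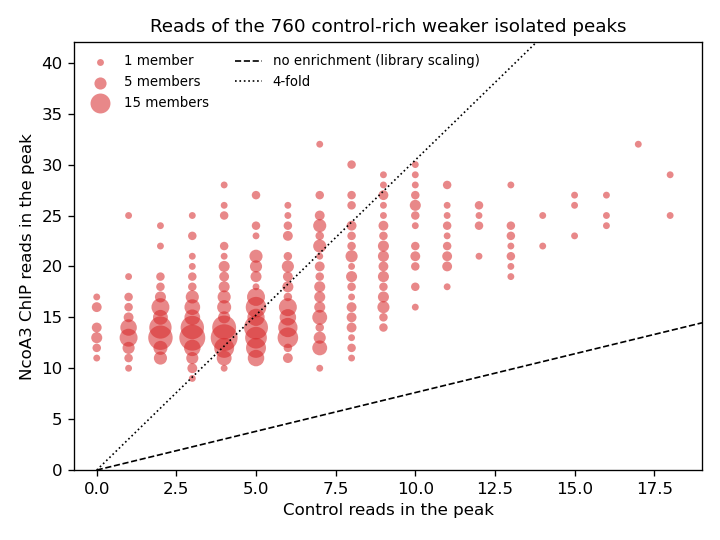
NcoA3 ChIP reads (vertical axis) against control reads (horizontal axis) in each of the 760 members, with the area of a point growing with the number of members at that pair of counts. The dashed line marks no enrichment after library scaling and the dotted line 4-fold, and all points lie above the dashed line, with ChIP counts from 9 to 32.

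The surroundings differed more between the sets than the peaks did. Around each summit the ratio of the libraries was taken over 100 kb, leaving out the central 10 kb, and expressed over the whole-library ratio. Its median was 0.979 in members, with 354 of 760 (46.6%) above 1, and 1.46 in control-poor peaks, with 535 of 551 (97.1%) above 1. Members therefore lay in neighbourhoods where ChIP and control reads stood close to their overall proportion, although single members ranged from 0.346 to 1.85. The rule chose on the control reads of nearly the same window, so this contrast between the sets follows in part from it.

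With each peak scaled by its own surroundings, the order of the sets changed. Members were 4.31-fold above their neighbourhood (interval 4.16 to 4.47), while control-poor peaks were 3.54-fold (interval 3.37 to 3.72) and strong peaks 3.69-fold (interval 3.56 to 3.83). By the exact binomial test on this scale 648 members (85.3%) were higher, against 74.1% of the whole list, and 317 of 551 control-poor peaks (57.5%) were. Both scalings called 639 of the members, library scaling alone 85, local scaling alone 9 and neither 27. The 112 members not called locally had a median regional ratio of 1.26, against 0.943 for those called. As the surroundings entered both the rule and the scaling, no test was made between the sets.

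Along the control scale the pooled values of the weaker isolated peaks depended on the scaling. The control reads of the bin, which the rule used, also set much of the local scale (their Spearman correlation with the regional ratio was -0.75 over the 760 members), so the directions given here are largely fixed by construction and are only a description. Control-rich bins were divided into 4 parts of nearly equal size, from 542 to 652 control reads up to 970 and more, and the bins below the median into 2 parts. With library scaling the pooled ratio went down from 4.47 (interval 4.15 to 4.81) in the first part of the control-rich bins through 4.33 and 4.07 to 3.61 (interval 3.33 to 3.93) in the last. With local scaling it went up from 3.67 (interval 3.42 to 3.95) through 4.06 and 4.70 to 5.48 (interval 5.04 to 5.95). The share of members called locally went from 71.6% to 82.1%, 95.6% and 97.5% in the same order, and the share called with library scaling lay between 94.1% and 96.6%.

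Peak density followed another course. Weaker isolated peaks numbered 3.54 per 100 bins in the bins poorest in control reads and 5.83 in the upper part of the control-poor bins. They numbered 7.46, 7.92 and 7.29 in the first 3 parts of the control-rich bins and 4.20 (interval 3.48 to 5.02) in the part richest in control reads. Strong isolated peaks instead numbered 0.0863 per 100 bins at the poor end, 0.707 (interval 0.432 to 1.09) in the first control-rich part and 2.93 (interval 2.33 to 3.63) in the last. Weaker peaks were sparser at both ends of the control scale, and strong ones were densest where control reads were most frequent. Tags and the control reads of the bin are both values of the rule, and the caller weighs ChIP reads against the local control. The median tag count of the weaker peaks was 14 in both control-poor parts and 18 in the last control-rich part. These densities are therefore a description only. The median ChIP count of the bins was 419 reads in the poorest part and 477 in the upper control-poor part. Over the control-rich parts it changed little, from 491 through 505 and 504 to 461 reads.

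**Figure D2:**
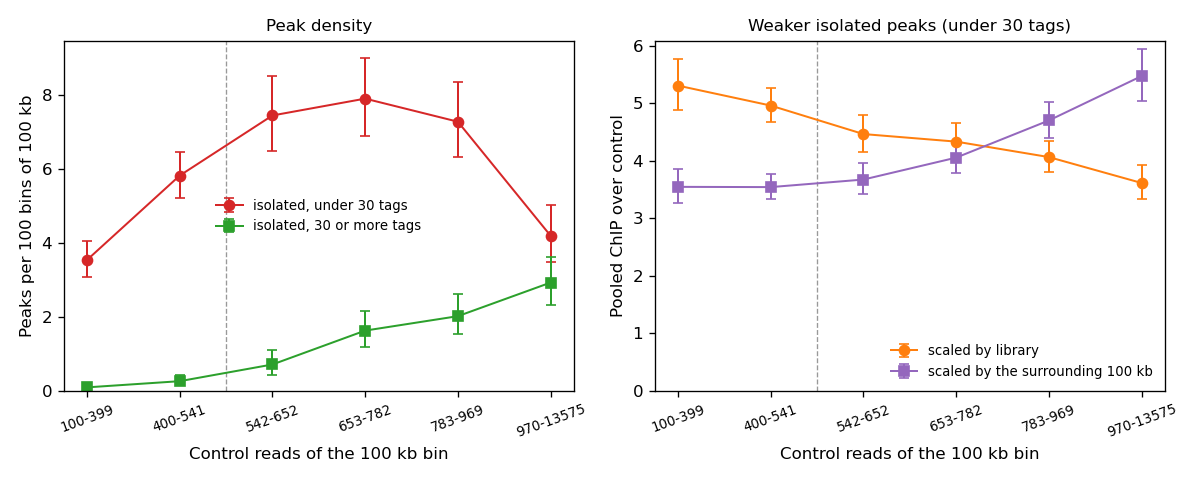
Left, isolated peaks per 100 bins of 100 kb against the control reads of the bin, for peaks under 30 tags (circles) and with 30 or more (squares), with 95% Poisson intervals. Right, pooled ratio of ChIP to control reads of the peaks under 30 tags, scaled by library (circles) or by the surrounding 100 kb (squares), with 95% exact intervals. Members lie to the right of the dashed line, where the 2 ratios cross as they go from 4.47 to 3.61 and from 3.67 to 5.48.

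The ChIP signal of the members was narrow around the summit, which the caller had placed on these same reads. Within 150 bp of the summit they held 36.01 ChIP reads per kb per peak, at 150 to 500 bp 10.8, at 500 to 1000 bp 6.81 and at 10 to 50 kb 5.62. The ratio of the libraries over the same distances was 5.84 at the summit (interval 5.55 to 6.14) and 1.95 in the next class (interval 1.87 to 2.03). It was 1.09 at 500 to 1000 bp (interval 1.05 to 1.13) and 0.942 at 10 to 50 kb (interval 0.937 to 0.946). Beyond 500 bp from the summit the members were therefore within 1.09 of the whole-library proportion. Control-poor peaks had a similar ratio at the summit, 6.30 (interval 5.91 to 6.73). It was 1.57 at 500 to 1000 bp and 1.44 at 10 to 50 kb. Their ChIP reads fell off much as in members, at 32.3, 9.70, 6.44 and 4.62 per kb per peak over the distances given above. Control reads at 10 to 50 kb were 7.85 per kb per peak in members and 4.21 in control-poor peaks. The rule chose on control reads, so the contrast in ratio follows in part from it.

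In the members the control had at most a small summit. Over the flank at 2 to 10 kb, the density within 150 bp of the summit was 1.01 times in the control (1851 summit reads; interval 0.965 to 1.06). It was 6.18 times in the ChIP library (8244 summit reads; interval 6.04 to 6.32). The summit was placed on the ChIP reads and not on the control reads, so this contrast follows in large part from the calling. In control-poor peaks the control stood at 1.52 times its flank (interval 1.43 to 1.61) and in strong peaks at 2.05 times (interval 1.94 to 2.16). The size of the control summit in members depended on what it was set against. Control reads were 8.11 per kb per peak within 150 bp (1848 reads) and 7.27 at 150 to 500 bp (3866 reads), then 8.24 at 500 to 1000 bp and 8.41 at 1 to 2 kb. The summit thus stood above the bases beside it but not above the wider flank, and members differed among themselves. The control stood at 1.17 times its flank (interval 1.06 to 1.30) in the 119 members with 23 to 29 tags, and at 1.22 times (interval 1.12 to 1.34) in the first of the 4 parts of the control-rich bins. Within the weaker isolated peaks the control summit over its flank went down along the control scale. It was 1.72 times (interval 1.55 to 1.90) in the bins poorest in control reads, and 1.02, 0.914 and 0.918 in the second, the third and the last part of the control-rich bins. The caller had tested each peak against control reads near it, so the control level at the summit was part of how the peaks were chosen, and no test was made. The flank also lay largely in the bin whose control reads the rule used. Differences between members and control-poor peaks and along the control scale therefore follow in part from the rule.

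**Figure D3:**
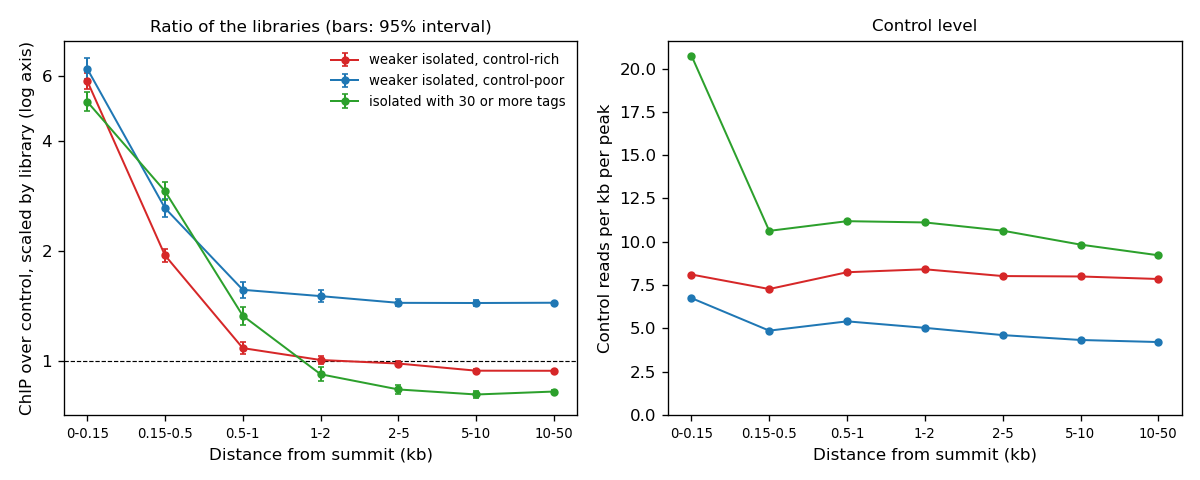
Left, ratio of ChIP to control reads scaled by library (log axis) in 7 distance classes from the summit, for members, control-poor and strong isolated peaks, with 95% exact intervals. Right, control reads per kb per peak in the same classes. Members start at 5.84 and reach 0.942, while their control level stays between 7.27 and 8.41 reads per kb.

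Members with more tags had higher ChIP summits over their flank, which follows in part from the tag count itself. The summit over the flank was 5.06 times at 13 tags (220 members), 5.47 at 14 to 16 (244 members), 6.99 at 17 to 22 (177 members) and 8.51 at 23 to 29 (119 members). Median length rose alongside, from 568.0 to 600.5, 705.0 and 849.0 bp. The pooled ratio did not follow: with library scaling it was 4.58 at 13 tags (interval 4.23 to 4.96) and 3.61 at 23 to 29 tags (interval 3.37 to 3.88), and with local scaling it lay between 4.04 and 4.54 in all 4 classes. Across the 760 members the tag count and peak length had a Spearman correlation of 0.77, and the tag count and the control reads of the bin one of 0.31. These values share the reads of 2 libraries and are descriptions only.

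Reads of the members were arranged by strand around the summit. A read's 5′ end marks an end of the DNA fragment, so fragments that cover a bound site leave plus-strand ends upstream and minus-strand ends downstream. Within 250 bp of the summit 75.4% of the members' ChIP reads were placed this way (7862 of 10430; interval 74.5% to 76.2%), against 54.0% of the control reads (1589 of 2945; interval 52.1% to 55.8%). More ChIP reads were so placed than not at 744 of the 760 members, and 10 were tied.

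The steps in these profiles were about as wide as the caller's tag distance of 200 bp. From 200 bp upstream to the summit the members held 24.0 plus-strand ChIP reads per kb per peak. From 400 to 200 bp upstream they held 5.89, and in the 200 bp downstream 7.34. Minus-strand reads stood at 21.3 in the 200 bp downstream and 7.28 in the 200 bp upstream, and at 9.72 from 200 to 400 bp downstream. Their high stretch ran from about 50 to 250 bp downstream and was thus offset from the summit. In the control the plus strand held 4.15 upstream and 3.54 downstream over the same stretches. The caller moves reads towards each other by a fixed part of that distance before it places a summit, so the arrangement follows in large part from the calling and is no independent sign of binding.

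**Figure D4:**
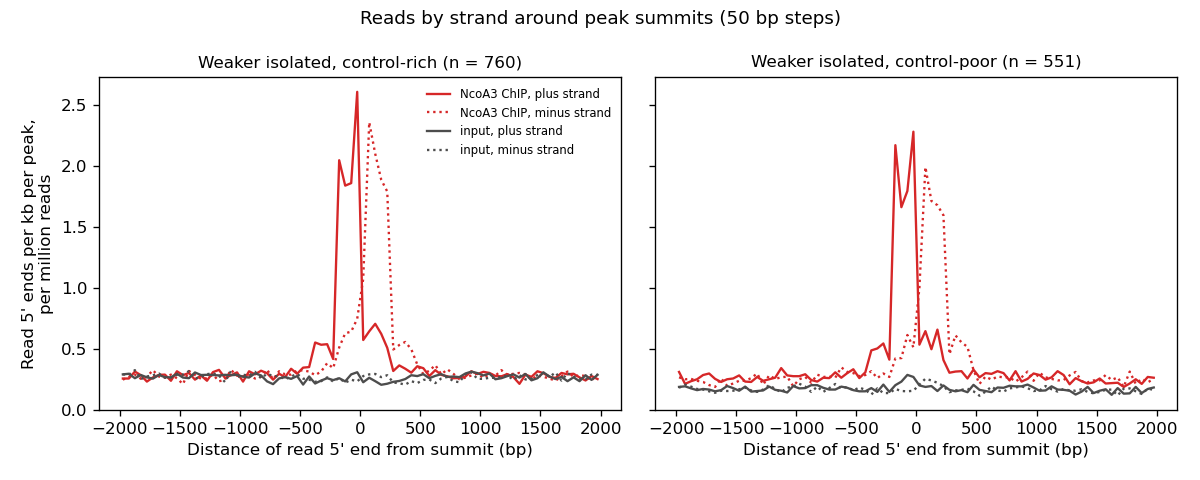
Read 5′ ends per kb per peak and per 1e+06 reads (vertical axis) by distance from the summit in 50 bp steps, for members (left) and control-poor peaks (right), with the ChIP library in red, the control in grey, plus strand solid and minus strand dotted. In members the plus-strand ChIP signal fills the 200 bp upstream of the summit and the minus-strand signal about 50 to 250 bp downstream, while both control lines change little.

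Placement by strand was not a value of the rule, so it was compared between control-rich and control-poor peaks. The share also counts background reads, however, and the split chose on control reads. At 5 to 10 kb from the summit, members held 5.73 ChIP and 7.99 control reads per kb per peak. Control-poor peaks held 4.75 and 4.32. The shares are therefore not independent of the split, and the part of the background in their differences was not tested. The ChIP share was 75.4% in members and 76.8% in control-poor peaks (interval 75.7% to 77.8%), a difference of -1.38 percentage points (adjusted p = 0.0485, Fisher's exact test on reads, two-sided, over 2 comparisons). In the control it was 54.0% in members and 57.0% in control-poor peaks (interval 54.6% to 59.4%), a difference of -3.05 points (adjusted p = 0.0485, Fisher's exact test as before). Reads of 1 peak are not independent, and the ChIP difference did not pass under any of the 5 other settings tried (differences of -1.44 to -0.708 points, unadjusted p of 0.0557 to 0.350). The control difference passed under 2 of them, within 150 bp (-4.59 points, unadjusted p = 0.0177, exact test) and with 50 kb bins (-3.60 points, unadjusted p = 0.0198, exact test). It did not pass under the other 3 (unadjusted p of 0.0934 to 0.615).

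The distance between strands was measured per member as the median minus-strand position less the median plus-strand position within 500 bp. It could be taken at 697 members with at least 4 reads on each strand. Its median was 157 bp, with quartiles of 65.0 and 242.5 bp, and it was above 0 at 614 of the 697 (88.1%). In control-poor peaks the median was 164.5 bp. Both medians lay between the library's own strand distance of 132 bp and the caller's 200 bp.

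Strand balance was tested within each peak. The exact binomial test of plus against minus ChIP reads called 7 of 760 members (0.921%), where 1.59% of the whole list was called. No peak of the list with under 12 reads was called, and 43 members held 11 or fewer, so the test could miss one-strand peaks among them. It missed chr11:59894018-59894579, with 0 plus and 11 minus reads (adjusted p = 0.0532, exact binomial test). Reads of a single strand made up 3 members in all, with 11 to 14 reads. Among control-poor peaks 6 of 551 were called and among strong peaks 12 of 226. Each of the 7 held nearly all its reads on one side. The peak at chr7:70112371-70112978 had 14 plus and 0 minus reads, chr4:87465531-87466110 had 0 plus and 13 minus reads, and chr9:46909019-46909793 had 21 plus and 3 minus reads. The last had a ratio of 6.31 (interval 2.36 to 21.2) and an authors' score of 135.5, so it was not among the weakest members.

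The strongest member by the authors' deposited score of 196.0 lay at chr1:4962175-4962945 (summit 4962683). There were 25 ChIP reads and 1 control read in it, or 2.17 against 0.0661 reads per 1e+06 reads, a 32.8-fold ratio whose interval (5.38 to 1349) is wide because of the single control read. Its 11 plus and 14 minus reads were balanced, and its surroundings stood at 0.970 of the library ratio.

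Next by score came chr8:50250482-50251182 (score 186.9) and chr10:8775558-8776317 (score 182.6), each with 25 ChIP and 4 control reads and a ratio of 8.21 (interval 2.84 to 32.5). The peak at chr18:47600362-47601141 (score 178.6) held 28 ChIP and 4 control reads, a ratio of 9.20 (interval 3.22 to 36.1). At chr6:108036614-108037280 (score 170.3) the counts were 24 and 6, and at chr4:32504957-32505713 (score 165.0) they were 30 and 8. All 6 passed the exact binomial test, with adjusted p between 2.41e-07 and 3.02e-04. The score that chose them rests on the same reads, so nothing is read from these passes. Their intervals overlapped, so their order by ratio is not resolved.

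At 14 members the control held 0 reads, against 11 to 17 ChIP reads. The control was then set at 3 reads, a working upper limit for a count of 0 and not a strict bound. On that setting their ratios were 4.82-fold to 7.45-fold, with the error of the ChIP counts left out. The highest fold values with the added read were all of this kind. They belonged to chr13:36456526-36457151 with 17 ChIP reads and to chr13:5549356-5549988 and chr18:20987112-20987701 with 16 each. The authors' score there was only 71.2, 76.5 and 95.4.

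The lowest ratios were at chr2:21190967-21191605 with 11 ChIP and 8 control reads (1.81-fold, interval 0.662 to 5.17) and chr4:57784557-57785422 with 25 and 18 (1.82-fold, interval 0.956 to 3.55). They were followed by chr3:87104301-87104930 with 10 and 7 (1.88-fold, interval 0.645 to 5.81). None of these 3 passed the exact binomial test with library scaling (adjusted p of 0.248, 0.0657 and 0.225), as their choice by low ratio made likely. On the local scale chr4:57784557-57785422, whose surroundings stood at 0.844, passed with an adjusted p of 0.0204 in the exact binomial test.

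In the bins richest in control reads, local scaling raised the values of both members named here. The peak at chr9:21518533-21519293 lay in a bin of 1787 control and 482 ChIP reads, with surroundings at 0.353 of the library ratio. Its 22 ChIP and 7 control reads gave 4.13-fold by library scaling (interval 1.70 to 11.4) and 10.7-fold over its surroundings with 1 read added to each library. The peak at chr17:56518405-56519161, in a bin of 1501 control and 447 ChIP reads, held 21 and 9, a ratio of 3.07 (interval 1.35 to 7.60) and 7.05-fold over its surroundings. Both passed the exact binomial test on both scales.

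Members were spread thinly over the control-rich genome. They occupied 727 of 11320 control-rich bins (6.42%), of which 32 held more than 1 member. The bins with a member had a median of 753 control and 563 ChIP reads, and the 10350 control-rich bins with no peak had 783 and 483. With 4 kb at each peak left out, the ChIP median of the member bins was still 521. The ChIP level around members was thus above that of control-rich bins without peaks, while the control level was slightly below it. The peaks were called on these ChIP reads, so no test was made.

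Neighbouring sites were usually far away. The nearest other summit of the list lay at a median of 304598 bp, and 196 of 760 members (25.8%; interval 22.7% to 29.1%) had one within 100 kb. A peak with 30 or more tags lay within 100 kb of 56 members (7.37%; interval 5.61% to 9.46%) and of 12 control-poor peaks (2.18%; interval 1.13% to 3.77%). Strong isolated peaks were themselves more frequent in control-rich bins, as given above, and their part in this difference was not tested.

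Counts per chromosome were compared with each autosome's share of control-rich bins by an exact two-sided binomial test with Benjamini-Hochberg adjustment over 19 autosomes. Of the 19, 2 passed (10.5%). Chromosome 18 held 43 members where 25.2 were expected, which is 1.71 times as many (1.245 to 2.28) at an adjusted p of 0.00737 in that exact test. Chromosome 7 held 25 where 48.1 were expected, which is 0.519 times as many (0.338 to 0.761) at an adjusted p of 0.00467 in the same exact test. On chromosome 18 that was 11.5 members per 100 control-rich bins, on chromosome 7 it was 3.49. The test takes each member as an independent draw, although some members lay in the same 1 Mb block. Of all autosomal blocks, 7 held 4 or more members. The chromosome 18 blocks that start at 35000001, 47000001 and 69000001 held 4 each. The p-values and intervals do not allow for any dependence between members of a block, which was not tested. The median ChIP count of their control-rich bins was 502 reads on chromosome 18 and 459 on chromosome 7. Their median control count was 732 on chromosome 18 and 832 on chromosome 7. The part of either depth in the counts of members was not tested.

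Chromosome 7 passed under all 5 other settings tried, with ratios of 0.459 to 0.569 and adjusted p of 0.00499 to 0.0215 in the exact binomial test. The call on chromosome 18 passed under 1 of them, with no other summit within 20 kb, and not with chromosome length as the base (ratio 1.499), a score of 60 or more (1.503), tags under 20 (1.63) or 50 kb bins (1.55), where adjusted p was 0.0686 to 0.344 in the same test. The other 17 autosomes had ratios from 0.736 on chromosome 5 to 1.31 on chromosome 13.

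**Figure D5:**
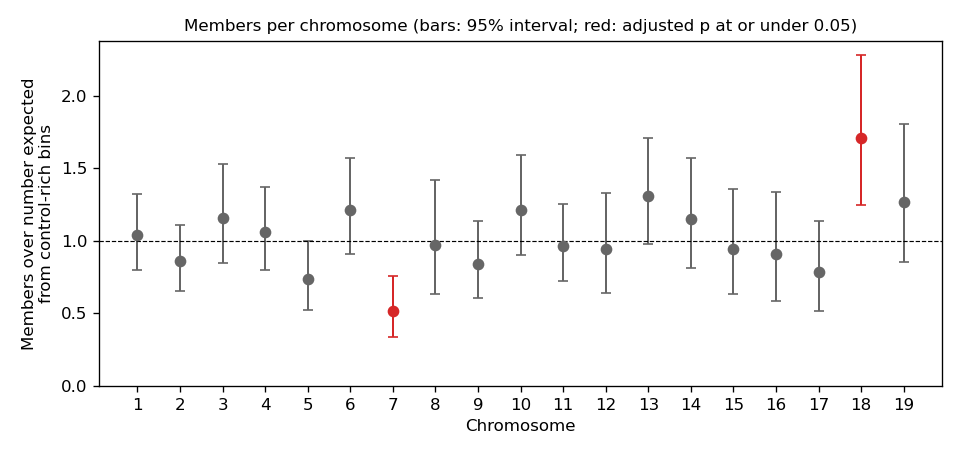
Members per autosome over the number expected from its share of control-rich bins (vertical axis), with 95% exact intervals. Red marks the 2 chromosomes that passed, 18 at 1.71 and 7 at 0.519, and the dashed line marks the expected number.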

How the data were processed

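The authors deposited each 35 bp read as a line with its mm8 position, a build named in the submitters' processing notes. Which aligner was used is not given in the sources used. No start and strand occurred more than once in a library. Peaks were called with MACS 1.4.1 with a p-value limit of 1e-05 and d = 200 bp, per the file headers. The deposited list gives ChIP tag counts (up to 2 per position), a score, a fold (ratio over local background) and a false discovery rate in percent. Members held 12883 tags in the authors' table and 12005 deposited reads by unmoved 5′ ends, or 12444 with 5′ ends moved as below, the count used.

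Read 5′ ends were moved inward by 66 bp (ChIP) and 75 bp (control), from strand distances of 132 and 150 bp, except where strands were analysed, and counted with scipy 1.17.1, pandas 2.3.3 and numpy 2.4.6 in Python 3.11.15. Libraries were scaled by reads on chromosomes 1 to 19, X and Y. Exact 95% intervals (Clopper-Pearson; conditional ones for ratios; Poisson ones for densities) cover counting error only, since without molecular identifiers a read is not an independent molecule. A control count of 0 was set at 3 reads for ratios, a working upper limit and not a strict bound. The tests were run on simulated counts first. Members, lists and tests were chosen with earlier results of these data known. Regions named are the 6 highest scores, the 3 highest and the 3 lowest ratios, the 2 members in the bins with most control reads and peaks beside each threshold. The one-strand peaks and the fullest bin and block were chosen after their values were seen. No mm8 genome or gene annotation was used, so members carry no gene names or sequences here.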

Additional observations from a re-analysis of the deposited data

How the results depend on the processing

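No paired analysis was possible because each group held 1 library. The count of members called higher (724) stayed within 1.5 times under 7 alternatives (539 to 739) and was 475 of 482 with a score of 60 or more, where fewer peaks met the rule. Chromosomes past the threshold numbered 2, and 1 with chromosome length as the base, with a score of 60 or more, with tags under 20 and with 50 kb bins; the cause was not tested. The pooled ratio of 4.14 was 4.305 within 300 bp of the summit, 4.31 with local scaling, 4.41 with a score of 60 or more and 4.43 with tags under 20. The locally scaled ratio of 4.31 was 4.67 with a score of 60 or more. The summit over the flank in the ChIP library was 6.18, and 5.89 with the flank at 1 to 5 kb, 5.18 with 5′ ends not moved, 6.62 with a score of 60 or more and 5.49 with tags under 20. In the control it was 1.01, and 0.946 with a score of 60 or more. The strand difference from control-poor peaks (-1.38 points in the ChIP library) no longer passed within 150 bp (-1.44), with a score of 60 or more (-0.848), with no other summit within 20 kb (-1.25), with tags under 20 (-0.708) and with 50 kb bins (-1.30). In the control (-3.05 points) it no longer passed with a score of 60 or more (-1.04), with no other summit within 20 kb (-2.67) and with tags under 20 (-2.78), while it passed within 150 bp and with 50 kb bins. Fewer reads entered under the score, tag and distance settings and within 150 bp. Otherwise the cause was not tested. Depth limits what single members show: a median of 15 ChIP and 5 control reads left an interval of the ratio above 1 at 689 of the 746 members with control reads and above 2 at 145.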

Other observations

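Some members shared a 1 Mb block, a scale above the 10 kb that the rule used. Whether this exceeds a random spread over control-rich bins was not tested. The 1 Mb block with the most members, at 109000001 to 110000000 of chromosome 4, held 5 in its 8 control-rich bins, where 569 blocks held any member and 7 held 4 or more. These 5 peaks, at chr4:109228210-109228846, chr4:109287867-109288438, chr4:109374389-109374978, chr4:109442749-109443209 and chr4:109810068-109810647, had only 13 to 15 tags each. Their counts were 15, 14, 13, 11 and 14 ChIP reads against 1, 3, 2, 6 and 5 control reads. The bins of the first 3 held 777 and 748 ChIP reads, above the median of 563 for bins with a member, and 598 and 596 control reads, below the median of 753. The bin of the fourth went the other way, with 551 ChIP and 775 control reads, and that of the fifth held 584 and 576. In the exact binomial test the fourth did not pass with library scaling (adjusted p = 0.0896), and the second, the fourth and the fifth did not pass with local scaling (adjusted p of 0.0627, 0.0613 and 0.0530).

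The fullest 100 kb bin, at 9100001 to 9200000 of chromosome 16, held 3 members. They were at chr16:9143537-9144260, chr16:9178219-9179004 and chr16:9197870-9198534, with 16, 21 and 20 ChIP reads against 9, 10 and 9 control reads. Their ratios of 2.34, 2.76 and 2.92 were below the members' pooled 4.14, and a peak with 30 or more tags lay 97332 bp from the first.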
